A study of Mus musculus with 28 samples.

Results

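Described here are 9 genes of the Wnt family, *Wnt4*, *Wnt6*, *Wnt7b*, *Wnt9a*, *Wnt10a*, *Wnt1*, *Wnt7a*, *Wnt9b* and *Wnt10b*, out of 22380 protein-coding genes in the annotation. The first 5 were chosen because the study's expression analysis names them as upregulated without Brg1, and the other 4 as their closest paralogs. Expression was not analysed here. The data are ChIP-seq lists of enriched regions from mouse embryonic stem cells differentiated to mesoderm for 4 days, with mesoderm induction over the last 40 h. Both conditions share the genotype Brg1 f/f;Actin-CreER, in which both *Brg1* alleles are floxed and a tamoxifen-inducible Cre is expressed from an actin promoter throughout the culture. Control cultures received the vehicle THF, and 4-OHT cultures received 200 nM 4-hydroxytamoxifen to delete *Brg1*. The lists comprised 3 control and 3 4-OHT libraries for H3K27me3, 2 and 2 for Suz12, 2 and 2 for H3K27ac, and 3 for FLAG in cells labelled with normal Brg1 levels. The labels give the FLAG samples the same genotype as the others, whereas the study's methods describe cells whose own *Brg1* gene carries a FLAG tag, assayed in duplicate, and all 3 lists were used here. The lists of histone marks and Suz12 do not show whether *Brg1* was deleted in each culture.

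Wnt proteins are secreted, lipid-modified ligands that bind Frizzled receptors and the co-receptors Lrp5 and Lrp6, and in the canonical pathway stabilise beta-catenin. In the gastrulating embryo a few of them drive formation of the primitive streak and mesoderm, whereas most act later, in neural tube, limb, kidney, lung and skin appendages. Genes held silent until such later stages often carry H3K27me3, the mark that Polycomb repressive complex 2 (PRC2) places through its catalytic subunit together with Suz12, preferentially at CpG-rich promoters. H3K27ac occupies the same lysine and marks active promoters and enhancers, and Brg1 is the ATPase of BAF chromatin remodelling complexes.

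Each list gives only the start and end of regions called in 1 library over input, without a score or read count, so read depth is unknown. The measurement is therefore the number of bases covered by called regions within 5 kb on either side of the transcription start site (TSS), a window of 10 kb. A covered length falls when signal drops below the calling threshold, and fewer marked cells cannot be told apart from less mark per cell. H3K27me3 lists covered 8.38 to 11.01 Mb in control and 4.74 to 8.99 Mb in 4-OHT, which was 56.5%, 81.7% and 76.0% of the same-numbered control for numbers 1, 2 and 3. Suz12 lists covered 3.58 to 4.77 Mb and H3K27ac lists 26.1 to 30.8 Mb. Library number 1 of H3K27me3 stood apart in both conditions, with a median region of 250 bp against 350 to 425 bp in the others and a GC content of covered bases of 45.9% and 44.3% against 51.1% to 51.7%. FLAG 3 held 192 regions against 8021 and 8257 in FLAG 1 and 2. H3K27ac covered 5 of 6 mesoderm and primitive streak marker promoters in both controls, with *Kdr* at 0, and its sum over the 6 ranged from 19.2 to 27.3 kb in control and from 13.3 to 20.1 kb in 4-OHT. It also covered 3 of 4 pluripotency markers in both controls, with sums of 12.4 to 13.8 kb in control and 15.1 to 15.2 kb in 4-OHT. These markers did not move together. *Sox2* and *Zfp42* were higher for both numbers and *Pou5f1* was mixed. *Nanog* was lower, with 3990 and 4265 bp in control and 3140 and 3540 bp in 4-OHT. Among the 3 endoderm markers *Gata6* was covered, while *Foxa2*, *Sox17*, *Pax6* and *Neurog2* were at 0 in all 4 lists. *Sox1*, a further neural marker planned, had no record in the annotation. The part of these differences between lists and markers in the results below was not tested.

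The 9 genes lay at 7 loci of the mm9 build. *Wnt6* (chr1:74818466-74831893, plus strand) and *Wnt10a* (chr1:74838090-74850753, plus strand) are neighbours with start sites 19.6 kb apart, and *Wnt1* (chr15:98620288-98624268, plus strand) and *Wnt10b* (chr15:98602184-98608581, minus strand) are divergent neighbours with start sites 11.7 kb apart. *Wnt9a* (chr11:59120430-59147054, plus strand) starts 16.2 kb from *Wnt3a*, and *Wnt9b* (chr11:103588678-103611135, minus strand) starts 24.3 kb from *Wnt3*. *Wnt4* (chr4:136833404-136855641, plus strand), *Wnt7b* (chr15:85365869-85412251, minus strand) and *Wnt7a* (chr6:91313975-91361357, minus strand) had no other coding start site within 50 kb. The genes span 3.98 kb (*Wnt1*) to 47.4 kb (*Wnt7a*), with 5 exons in *Wnt4* and *Wnt10b* and 4 in the others.

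The promoters differed in base composition as well as in Polycomb cover. Of these, 3 are shown as the 200 bases just upstream of the TSS, 5′ to 3′ on the strand of the gene, with every CG dinucleotide in capitals. They were chosen because they span the range of CpG content of this stretch among the 9 genes and range from no Suz12 to full cover.
Wnt10a, chr1:74837890-74838089, plus strand: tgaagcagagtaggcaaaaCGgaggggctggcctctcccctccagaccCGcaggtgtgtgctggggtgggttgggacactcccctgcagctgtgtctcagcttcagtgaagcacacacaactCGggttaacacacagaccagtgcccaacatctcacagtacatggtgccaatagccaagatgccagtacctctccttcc
Wnt9a, chr11:59120230-59120429, plus strand: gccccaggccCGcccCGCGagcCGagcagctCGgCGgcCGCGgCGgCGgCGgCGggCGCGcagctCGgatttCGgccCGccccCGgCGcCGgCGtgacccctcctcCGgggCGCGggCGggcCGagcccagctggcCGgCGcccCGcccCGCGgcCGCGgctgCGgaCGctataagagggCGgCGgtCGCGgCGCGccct
Wnt9b, chr11:103611136-103611335, minus strand: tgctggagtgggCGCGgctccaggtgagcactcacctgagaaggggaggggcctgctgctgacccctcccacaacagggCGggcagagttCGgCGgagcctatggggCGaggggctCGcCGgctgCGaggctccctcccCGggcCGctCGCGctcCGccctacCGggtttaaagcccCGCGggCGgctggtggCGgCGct
The *Wnt10a* stretch, with 3 CpGs, was covered by Suz12 over its full length in both controls. The *Wnt9a* stretch, with 41 CpGs, had 129 bp of Suz12 in control 1 and none in control 2, and no H3K27me3 in any control. The *Wnt9b* stretch, with 20 CpGs, had no Suz12. None of the 9 promoters held the TCF/LEF motif ATCAAAG, the T-box motif AGGTGTGA or the GATA motif AGATAAG on either strand from 250 bp before to 50 bp after the TSS, where 3.32%, 1.06% and 2.69% of all coding promoters held them.

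Within 500 bp of the TSS the number of CpGs was 137 at *Wnt4*, 130 at *Wnt9a*, 95 at *Wnt7a*, 93 at *Wnt7b*, 83 at *Wnt6*, 78 at *Wnt9b*, 61 at *Wnt1*, 60 at *Wnt10b* and 37 at *Wnt10a*, where the median of all coding genes was 41. The 2 most CpG-rich promoters had the least H3K27me3 and the most CpG-poor one the most. The Spearman correlation of CpG number with mean control H3K27me3 was -0.90 over the 9 genes, a description over points that share libraries and, for the neighbouring pairs, domains. Over the 3396 genes covered by H3K27me3 in control it was 0.13, and genes with 100 or more CpGs had a median of 1.48 kb (n = 502) against 0.825 kb (n = 1075) for those with fewer than 50. For Suz12 the correlation was -0.47 over the 9 genes and 0.0060 over 1609 genes.

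**Figure D1:**
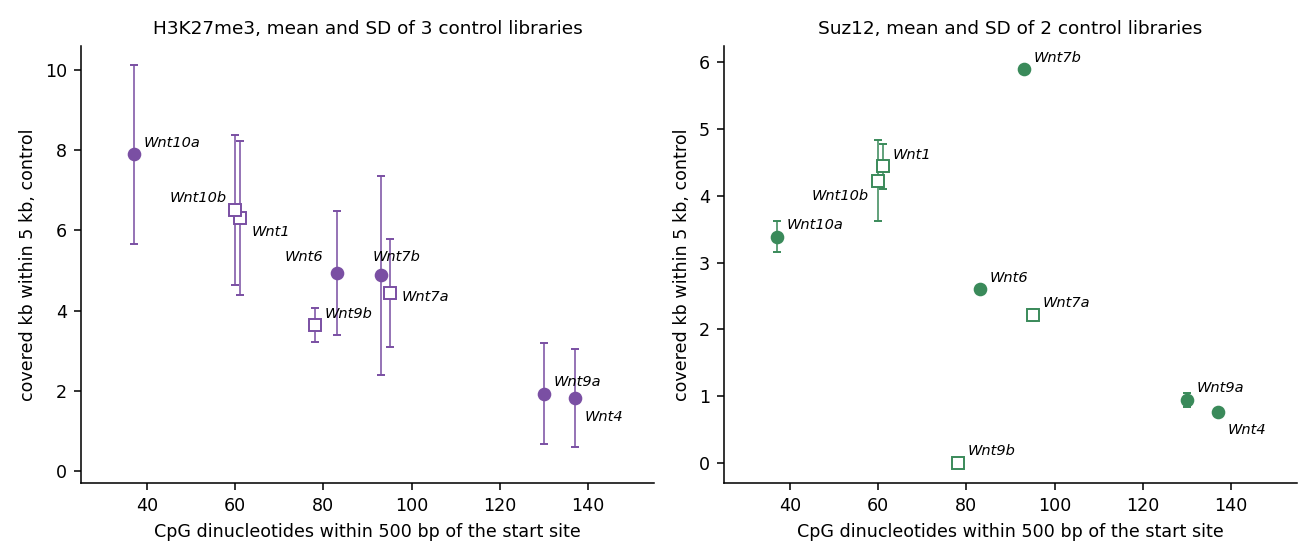
CpG dinucleotides within 500 bp of the TSS (horizontal axis, count) against the mean kb covered in the control lists within 5 kb of the TSS for H3K27me3 (left, n = 3 lists) and Suz12 (right, n = 2 lists), 1 point for each of the 9 Wnt genes with bars of 1 SD, filled for the 5 genes named as upregulated and open for the 4 paralogs. *Wnt4* and *Wnt9a*, with 137 and 130 CpGs, lie lowest for H3K27me3, and *Wnt10a*, with 37, lies highest.

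All 9 genes carried H3K27me3 in control mesoderm. *Wnt10a*, a ligand of tooth and hair development, had the most, with 5336, 9425 and 8900 bp covered in controls 1, 2 and 3, a mean of 7.89 kb that placed it at percentile 96.7 of the 3396 covered genes. *Wnt10b*, known for restraining adipocyte formation, followed with 4425, 8045 and 7045 bp, and *Wnt1*, the midbrain and dorsal neural tube ligand next to it, with 4087, 7412 and 7412 bp. These levels lay well above the median covered gene, at 1.18 kb. *Wnt6*, an ectodermal ligand that acts on somite epithelium, had 3185, 6050 and 5575 bp. *Wnt7b*, which acts in lung and in the vessels of the central nervous system, had 2025, 6300 and 6325 bp. *Wnt7a*, the dorsal ectoderm ligand of the limb, had 2925, 5450 and 4950 bp. These 3 formed a middle group with means of 4.94, 4.88 and 4.44 kb. *Wnt6* was above *Wnt7a* in each control, whereas *Wnt7b* was below both in control 1 and above both in controls 2 and 3.

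*Wnt9b*, the ureteric bud ligand of kidney induction, had 4075, 3600 and 3225 bp of H3K27me3 in the controls, and was the only one of the 9 with its highest control value in library 1. *Wnt9a*, which acts in forming joints, had 475, 2725 and 2600 bp. *Wnt4*, needed for kidney tubules and the female gonad, had 425, 2525 and 2550 bp. The last 2 were the lowest pair in each of the 6 lists of both conditions. Their control means were 1.93 and 1.83 kb, and *Wnt9a* was slightly above *Wnt4* in each control. At the other end *Wnt10a* ranked first in 5 of the 6 lists and second to *Wnt10b* in 4-OHT 2.

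In 4-OHT cultures the covered length was lower than in the same-numbered control at all 9 genes and for all 3 numbers, against 53.5% of the 3409 genes tested. That share, like those below, includes genes covered in as few as 2 lists, and a gene at 0 in a control cannot be lower. The 9 were covered in every control, so the share does not compare genes of like cover. By mean difference, 90.3% of the 3409 genes were lower. *Wnt10a* had 3061, 7200 and 7061 bp in 4-OHT 1, 2 and 3, *Wnt10b* had 1375, 7275 and 4825 bp, and *Wnt7a* had 1625, 4050 and 3700 bp. The control and 4-OHT ranges of these 3 genes overlapped. Ranges without overlap were found only at *Wnt9b*, with 2650, 3075 and 2425 bp after 4-OHT, while 14.7% of genes were lower without overlap. Without control 1, 7 of the 9 genes had all 4-OHT lists below the controls, all but *Wnt6* and *Wnt10b*, against 39.4% of genes.

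The smallest relative differences were at *Wnt6* and *Wnt7b*. *Wnt7b* had 400, 6250 and 6275 bp after 4-OHT, which was 99.2% of control for numbers 2 and 3 and 19.8% for number 1. *Wnt6* had 1825, 5925 and 5425 bp, or 57.3%, 97.9% and 97.3%. Both genes thus differed from control mainly in library 1. *Wnt1* had 2037, 6737 and 6537 bp. The largest relative differences were at the weakly covered pair, with 0, 1675 and 525 bp at *Wnt4* and 0, 1975 and 900 bp at *Wnt9a*, so that neither had a called region in 4-OHT 1. Their means were 40.0% and 49.6% of control, where the median covered gene had 67.2%.

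**Figure D2:**
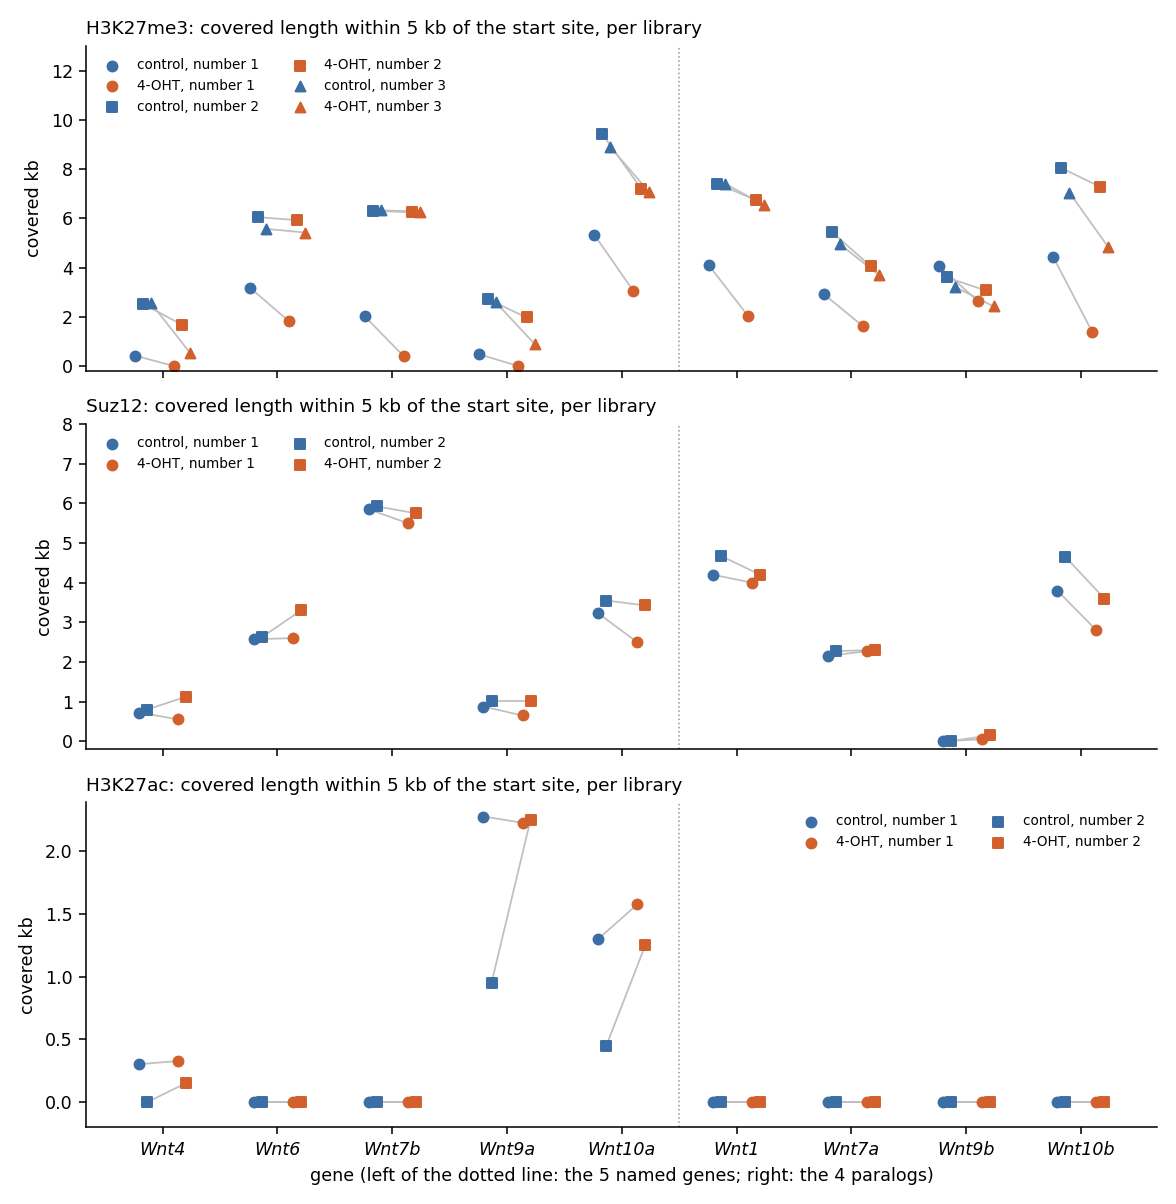
Bases covered by called regions within 5 kb of the TSS (vertical axis, kb) at each of the 9 Wnt genes for H3K27me3, Suz12 and H3K27ac, 1 point per library numbered as in the text, with control in blue, 4-OHT in orange and gray lines joining the same numbers. The H3K27me3 points of library 1 lie below those of libraries 2 and 3 in every gene but *Wnt9b*, Suz12 reaches from 0 in the controls of *Wnt9b* to 5925 bp at *Wnt7b*, and H3K27ac is above 0 only at *Wnt4*, *Wnt9a* and *Wnt10a*.

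None of these differences passed the test when the lists of a condition were treated as unpaired. The limma model called 0 of 3409 genes, with 281 lower and 4 higher at an unadjusted p under 0.05, and the smallest adjusted p among the 9 was 0.611. The median difference (4-OHT minus control) was -1.10 kb for the 9 genes and -0.38 kb for all genes, whose control cover was mostly lower. On a log2 scale of covered bases the medians were -0.56 and -0.66. With each library scaled to the size of its list they were -0.019 and -0.045 kb. The replicate numbers were taken to pair these libraries, from correlations between them, an assumption on which the next calls rest. With the number as a block limma called 243 genes lower (7.13%) and 2 higher (0.0587%). *Wnt10a*, *Wnt7a* and *Wnt10b* were 3 of the genes called lower. *Wnt10a* differed by -2.11 kb (SE 0.313, adjusted p = 0.0200 by limma), *Wnt10b* by -2.01 kb (SE 0.453, adjusted p = 0.0454) and *Wnt7a* by -1.32 kb (SE 0.283, adjusted p = 0.0427). The other 6 differed by -0.55 to -1.20 kb with adjusted p from 0.0777 at *Wnt4* to 0.309 at *Wnt7b*.

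The differences at the 9 genes were close to those of the lists as a whole. The 9 windows together held 26958, 51532 and 48582 bp of H3K27me3 in control and 12973, 44162 and 37673 bp in 4-OHT, which was 48.1%, 85.7% and 77.5% of control by number. The same sum over all coding genes was 58.7%, 83.7% and 78.0% of control. As a share of everything called in its list, the 9 windows held 0.425% ± 0.0897 in control and 0.420% ± 0.126 in 4-OHT (SD, n = 3 each). When each library was scaled to the size of its list, the difference became positive at *Wnt6* (0.76 kb), *Wnt7b* (0.45 kb), *Wnt1* (0.39 kb) and *Wnt9b* (0.24 kb), and with the block 1 gene (0.0293%) and none of the 9 was called. The 5 genes named as upregulated kept 46.2%, 85.2% and 77.8% of control H3K27me3 for numbers 1, 2 and 3, and their 4 paralogs 49.6%, 86.2% and 77.3%.

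Suz12 was present at 8 of the 9 promoters in control and at all 9 in 4-OHT. *Wnt7b* had the widest cover, 5850 and 5925 bp in controls 1 and 2 and 5500 and 5750 bp in 4-OHT. *Wnt1* had 4200 and 4675 bp against 4000 and 4200 bp, and *Wnt10b* had 3800 and 4650 bp against 2800 and 3600 bp. This order of the 3 highest genes was the same in all 4 lists. *Wnt10a* had 3225 and 3550 bp in control and 2500 and 3425 bp in 4-OHT. *Wnt6* had 2575 and 2625 bp against 2600 and 3300 bp, and *Wnt7a* 2150 and 2275 bp against 2275 and 2300 bp. The ranges of both conditions overlapped at *Wnt10a* and *Wnt6* and touched at *Wnt7a*.

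At the weakly covered genes Suz12 was narrow. *Wnt9a* had 875 and 1025 bp in control and 650 and 1025 bp in 4-OHT, and *Wnt4* had 725 and 800 bp against 550 and 1125 bp. *Wnt9b* was listed at 0 in both controls and had regions of 50 and 150 bp, 84 to 384 bp inside the gene, in the 4-OHT lists. *Wnt9b* thus carried 3225 to 4075 bp of control H3K27me3 with no control Suz12 called within 50 kb, and was the 1 of the 9 genes with more Suz12 in that wider window after 4-OHT without overlap, as at 36% of genes.

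*Wnt7b* and *Wnt10b* had Suz12 below control in both 4-OHT lists without overlap, against 6.99% of 1873 genes, and *Wnt9b* had it above, against 38.9%. The test passed for none. limma called 0 of 1873 genes, with 19 lower and 241 higher at an unadjusted p under 0.05. The largest difference was at *Wnt10b*, -1.03 kb (SE 0.493, adjusted p = 0.424 by limma). The median difference was -0.11 kb over the 9 genes and 0.14 kb over all genes. Summed over the 9 windows, Suz12 covered 24.46 ± 1.503 kb in control and 22.90 ± 2.793 kb in 4-OHT (SD, n = 2 each), or 89.4% and 97.5% of control for numbers 1 and 2, where all coding genes together had 99.6% and 121%.

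H3K27me3 was also divided into bases inside and outside Suz12 regions. Suz12 regions called in both controls filled 22.9 kb of the 9 windows. Inside them, H3K27me3 after 4-OHT was 41.4%, 98.4% and 93.5% of control for numbers 1, 2 and 3, and outside them 49.2%, 75.7% and 63.6%. The same split over the whole genome gave 74.7%, 96.3% and 92.7% inside and 53.4%, 75.5% and 68.2% outside. In libraries 2 and 3 of the control, H3K27me3 covered 99.3% and 98.9% of the Suz12 bases of these windows, but in control 1 it covered 15.8%, against 36.2% genome-wide. With cover this close to complete in controls 2 and 3, the covered length inside Suz12 regions could stay the same while the signal dropped, so the kept shares do not compare the strength of the mark inside and outside. All 3 controls had most of their H3K27me3 in these windows outside the Suz12 regions. The share inside was 13.4%, 44.1% and 46.6% in controls 1, 2 and 3, and 14.6%, 29.8% and 31.8% genome-wide. Control 1 had its H3K27me3 in 56 separate pieces over the 9 windows, against 26 and 30 in controls 2 and 3. It covered no TSS of the 9, while controls 2 and 3 each covered 6.

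*Wnt10b* is given as an example. Of its 3775 bp of control Suz12, H3K27me3 covered 3775 bp in controls 2 and 3 and 3750 and 3700 bp in 4-OHT 2 and 3. Outside, it covered 4270 and 3270 bp in controls 2 and 3 and 3525 and 1125 bp in 4-OHT 2 and 3. *Wnt7b* had little H3K27me3 outside Suz12, with 525 bp outside Suz12 in libraries 2 and 3 of both conditions and 5725 to 5800 bp inside. By distance from the TSS, H3K27me3 over the 9 genes at 2.5 to 5 kb was 37.8%, 75.2% and 66.6% of control for numbers 1, 2 and 3, and within 1 kb it was 75.8%, 93.9% and 77.6%. It was 53.1%, 87.1% and 85.6% at 1 to 2.5 kb, 44.2%, 82.2% and 81.4% at 5 to 10 kb and 54.8%, 86.2% and 90.8% at 10 to 50 kb, so that for number 3 the share within 1 kb was below that of every other distance but 2.5 to 5 kb.

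**Figure D3:**
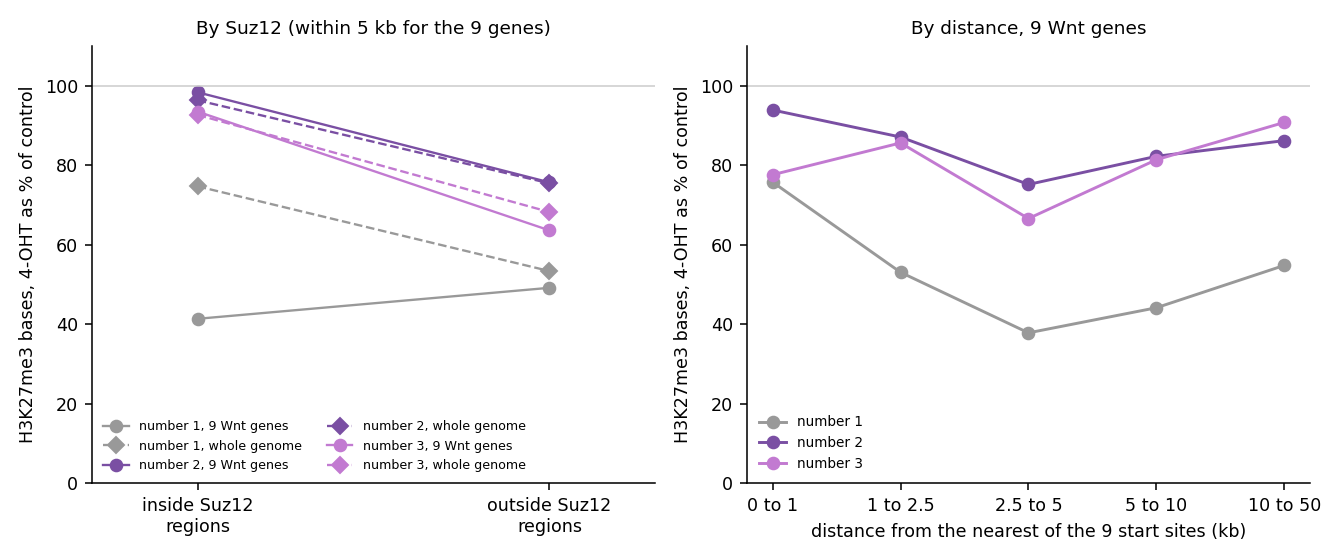
H3K27me3 bases in 4-OHT as percent of the same-numbered control (vertical axes, 1 line per number). On the left, bases inside and outside the Suz12 regions of both controls are split, for the 9 windows of 10 kb (circles, solid lines) and the whole genome (diamonds, dashed lines); on the right, the 9 genes are split by distance from the nearest of their start sites (kb). At the 9 genes numbers 2 and 3 lie at 98.4% and 93.5% inside and at 75.7% and 63.6% outside, number 1 lies at 41.4% inside and 49.2% outside, and on the right all 3 numbers are lowest at 2.5 to 5 kb.

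**Figure D4:**
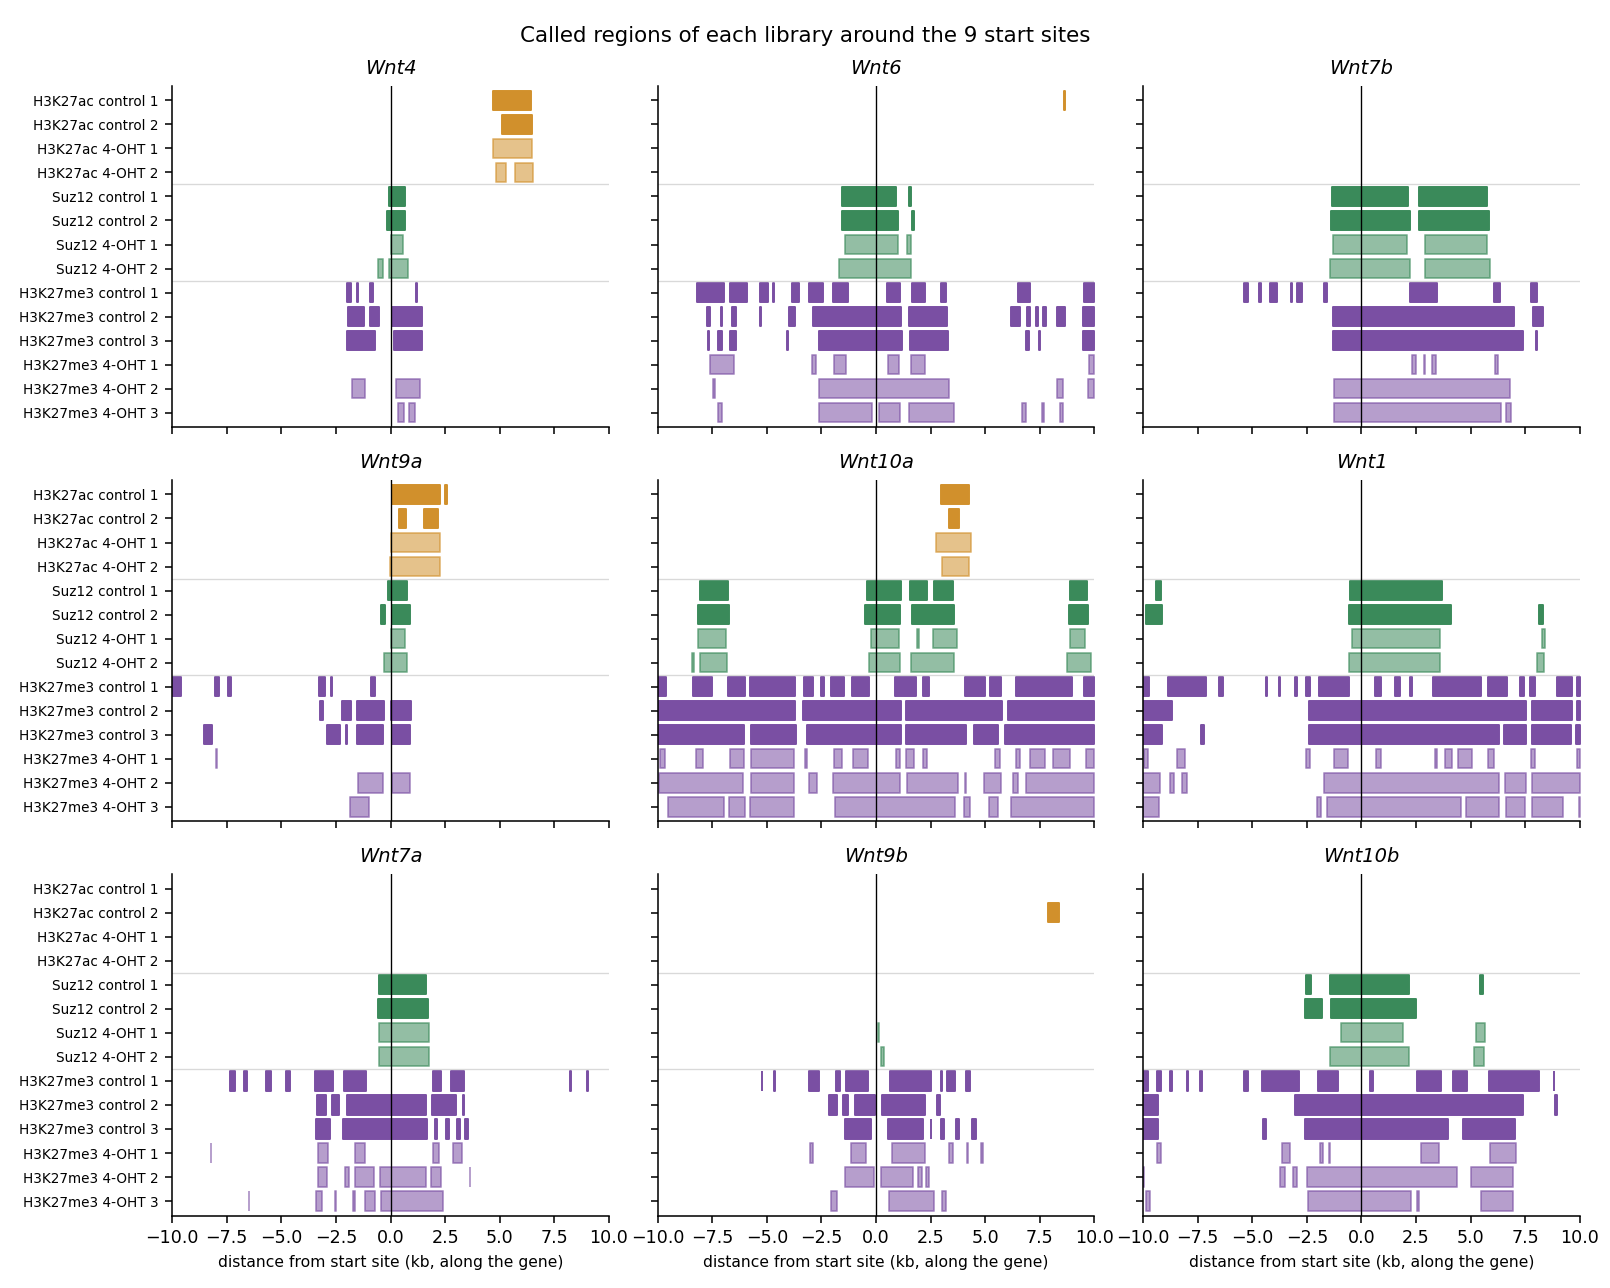
Called regions within 10 kb of the TSS of the 9 Wnt genes, 1 row per library, with distance from the TSS along the direction of transcription (kb, horizontal axis). Colours separate the marks, with 4-OHT in the paler shade and the TSS at the vertical line. Suz12 regions of the controls sit on or beside the TSS at every gene but *Wnt9b*, H3K27me3 of libraries 2 and 3 extends beyond them, and H3K27me3 of library 1 is broken into short pieces.

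H3K27ac was not called in the 10 kb windows of *Wnt6*, *Wnt7b*, *Wnt1*, *Wnt7a*, *Wnt9b* and *Wnt10b* in all 4 lists. It was called at *Wnt4*, *Wnt9a* and *Wnt10a*, 3 of the 9, where 11345 of the 22380 coding genes had it in at least 2 lists. At *Wnt9a* it began within 50 bp of the TSS in control 1 and both 4-OHT lists, with 2275 and 950 bp in controls 1 and 2 and 2225 and 2250 bp in 4-OHT. At *Wnt10a* it lay inside the gene, about 2.8 to 4.3 kb from the TSS, with 1300 and 450 bp in control and 1575 and 1250 bp in 4-OHT. At *Wnt4* the window held only the edge of an intronic region at about 4.7 to 6.5 kb, with 303 and 0 bp in control and 328 and 153 bp in 4-OHT. At each of the 3 the conditions overlapped, with control 2 the lowest library.

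*Wnt4* and *Wnt10a* had more H3K27ac in both same-numbered pairs, as did 55.1% of the 11345 genes tested. limma called 0 of 11345 genes, with 592 lower and 1638 higher at an unadjusted p under 0.05. The differences were 0.62 kb at *Wnt9a* (SE 0.493, adjusted p = 0.496 by limma), 0.54 kb at *Wnt10a* (SE 0.341, adjusted p = 0.426) and 0.089 kb at *Wnt4* (adjusted p = 0.726). At *Wnt9a* the active and repressive marks were called on some of the same bases, as 900 of the 2275 bp of H3K27ac in control 1 lay in H3K27me3 of control 2 and 700 in Suz12 of control 1, but none in H3K27me3 of control 1. Of the H3K27ac in either 4-OHT list at *Wnt9a*, 825 bp lay in H3K27me3 of 4-OHT 2 and none in that of 4-OHT 1 or 3. At *Wnt10a* all 1300 bp of H3K27ac in control 1 lay in H3K27me3 of control 2 and 1150 in that of control 3, but 175 in that of control 1. The lists cannot tell apart 2 marks in the same cells and each mark in different cells. In the gene body of *Wnt9a* a further intronic H3K27ac region, 18.5 to 18.9 kb from the TSS, was called in both 4-OHT lists with 350 and 400 bp and in neither control. The gene body of *Wnt9a* as a whole thus had 2575 and 2646 bp after 4-OHT, above the 2275 and 950 bp of control without overlap, as at 35.3% of genes.

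Wider windows showed that several of these domains are shared between neighbours. Within 50 kb of the TSS, *Wnt6* and *Wnt10a* counted the same H3K27me3 bases, 24075, 35800 and 33400 bp in control and 12800, 29775 and 27700 bp in 4-OHT. *Wnt1* and *Wnt10b* likewise shared 19225, 32750 and 30825 bp in control and 8750, 29875 and 26275 bp in 4-OHT. In control 2 a single region of 10450 bp lay over *Wnt10b* and one of 9950 bp over *Wnt1*. *Wnt4* had no H3K27me3 beyond its 10 kb window. *Wnt7a* had 5250, 5550 and 5150 bp in control and 2650, 4225 and 3875 bp in 4-OHT, and was with *Wnt9b* 1 of 2 genes without overlap between conditions, where 19% of 6937 genes were lower in this way. Without control 1 this held for all 9, against 44.6% of genes, and all 9 were lower in each same-numbered pair, against 59.6%. These shares again include genes covered in as few as 2 lists. Over the gene body, where *Wnt10a* had most with 7253, 12189 and 11514 bp in control and 3728, 10289 and 10614 bp in 4-OHT, 5 of 9 were lower in all 3 numbers against 48.1% of genes and none was without overlap against 12.9%. Suz12 in the gene body was lower without overlap at *Wnt1* and *Wnt7b*, against 6.67% of genes, and higher at *Wnt7a* and *Wnt9b*, against 37.3%.

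**Figure D5:**
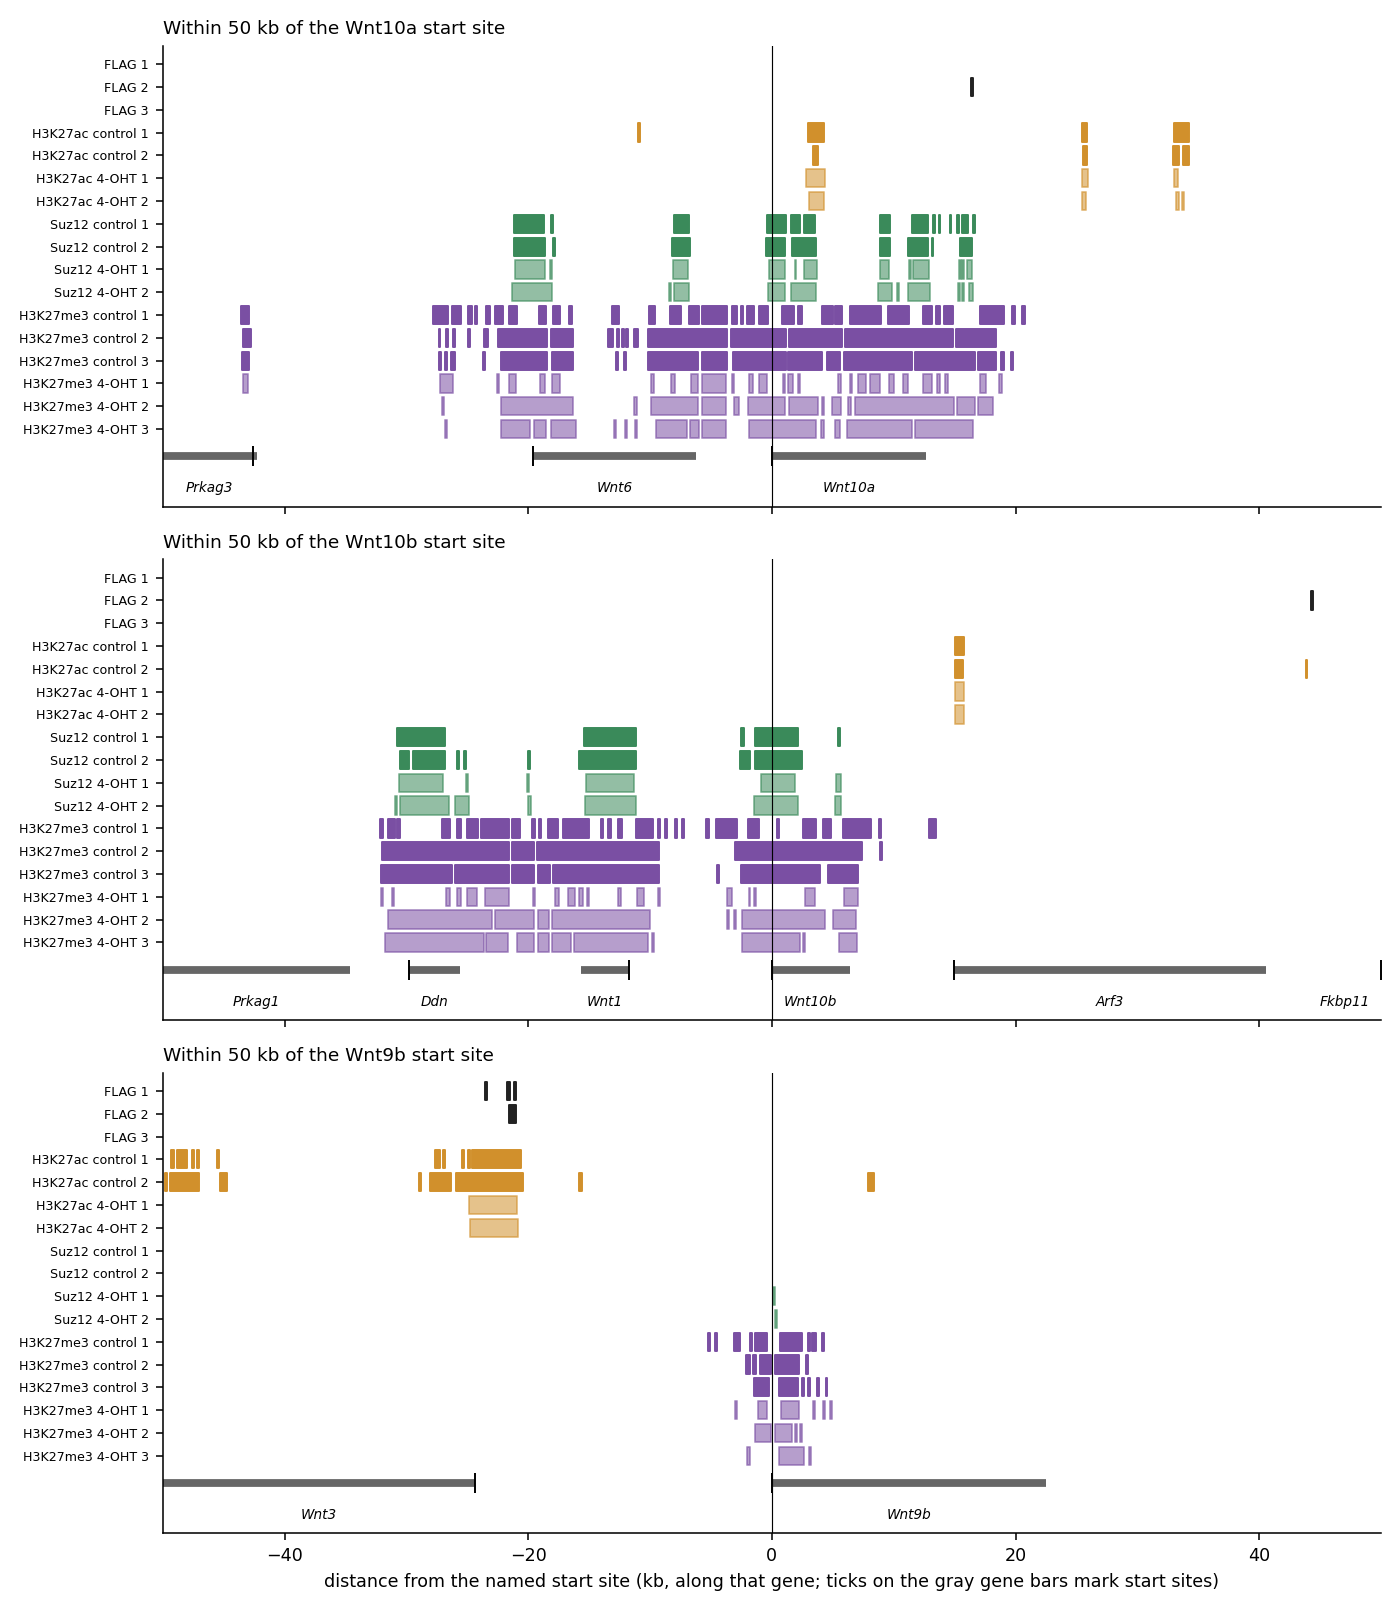
Called regions within 50 kb of the start sites of *Wnt10a*, *Wnt10b* and *Wnt9b* (horizontal axis, kb along each gene), 1 row for each of the 17 lists, with coding genes as gray bars below and their start sites as ticks. H3K27me3 runs across *Wnt6* and *Wnt10a* and across *Wnt1* and *Wnt10b*, whereas at *Wnt9b* it stays near the TSS and H3K27ac lies at the start of *Wnt3*, 24.3 kb away, with FLAG regions upstream of that start.

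H3K27ac within 50 kb was at 0 for *Wnt7b*, and near *Wnt9b*, *Wnt1* and *Wnt10b* it lay mostly at other genes. Near *Wnt9b* it was lower without overlap, from 5950 and 10975 bp in the controls to 3950 and 3875 bp after 4-OHT, as at 21% of genes. These bases lay around the start and in introns of *Wnt3*, the ligand required for the primitive streak. The 10 kb window of *Wnt3* itself had 5.96 kb in control and 3.91 kb in 4-OHT, which did not pass (adjusted p = 0.343 by limma, and 0.174 with the block). *Wnt7a* was the other gene with lower cover, 1375 and 1600 bp against 1350 and 1275 bp. Near *Wnt1* it was higher without overlap, 3375 and 3450 bp against 3925 and 3950 bp, as at 41.4% of genes, and lay mostly around the starts of *Arf3* and *Prkag1*.

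Brg1 was not called in at least 2 FLAG lists within 5 kb of any of the 9 start sites, where 3.99% of all coding genes had such a region. The only single call was 100 bp in an intron of *Wnt7a*, 1.53 kb from the TSS, in FLAG 2. Within 50 kb, *Wnt9b* alone had a region called in 2 lists, against 17.5% of coding genes. It lay in intergenic sequence 21.0 kb upstream of *Wnt9b* and inside the H3K27ac region at the start of *Wnt3*. The longer run of bases shared by both lists is printed, as part of the nearest Brg1 region seen in more than 1 library. The sequence held none of the 3 motifs on either strand.
Bases shared by FLAG 1 and FLAG 2, chr11:103632126-103632300, plus strand: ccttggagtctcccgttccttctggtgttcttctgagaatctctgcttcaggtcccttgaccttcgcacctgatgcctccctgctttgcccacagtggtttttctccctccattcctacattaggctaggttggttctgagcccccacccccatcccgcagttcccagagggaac
Other calls within 50 kb came from 1 list each and included those at chr1:74854426-74854600 downstream of *Wnt10a*, at chr11:59077601-59077775 in an intron of *Wnt3a*, and the 75 bp at 44.2 kb from *Wnt10b*.

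Among the other genes of the pathway few passed the test. H3K27me3 covered 7 of 10 further Wnt ligands, 7 of 15 receptors and co-receptors, and neither *Porcn* nor *Wls*, which serve Wnt secretion. The unpaired limma model called none of these for any of the 3 marks, with an unadjusted p under 0.05 at 1 receptor for H3K27me3, 2 ligands for Suz12 and 1 ligand for H3K27ac. With the block it called 1 ligand and 1 receptor lower for H3K27me3. *Wnt11*, a ligand of non-canonical signalling and heart development, had 2550, 5175 and 5550 bp in control and 675, 4250 and 3175 bp in 4-OHT (-1.73 kb, adjusted p = 0.0393 by limma). *Fzd8*, a Frizzled receptor, had 850, 2650 and 1700 bp in control and 0, 700 and 300 bp in 4-OHT (-1.40 kb, adjusted p = 0.0305 by limma). *Wnt3a*, the somite and tailbud ligand beside *Wnt9a*, had 5.08 kb in control and 4.46 kb in 4-OHT (adjusted p = 0.869 by limma unpaired and 0.205 with the block). The median difference was -0.57 kb over the 7 ligands and -0.31 kb over the 7 receptors.

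The profile over all 17 lists, taken as the mean kb within 5 kb of the TSS over the 9 genes, was most like that of *Bhlhe23*, *C1ql2*, *Nol4*, *Prdm14* and *Tcfap2e*, with mean absolute differences of 0.201, 0.261, 0.269, 0.283 and 0.288 kb per list. *Bhlhe23* had 3750, 5875 and 5625 bp of H3K27me3 in control and 1400, 4925 and 4500 bp in 4-OHT, Suz12 of 2175 to 2675 bp, and no H3K27ac or FLAG region.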

How the data were processed

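Day 4 cultures of mouse embryonic stem cells were assayed by ChIP-seq, and each sample's condition and number come from its label, which states biological duplicates or triplicates. The authors deposited 17 lists of enriched regions, whose chromosome, start and end positions on mm9 are the only values. Bowtie is named in the submitters' processing notes, and regions were called per replicate over input with a Poissonian model. The names of the lists give thresholds of 1e-06 for FLAG and 1e-12 for the other lists. Read filters are not given in the sources used here. The 11 input samples were not analysed here. Not every promoter sequence is reported here.

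From the lists, covered bases were computed within 5 kb of the TSS, over the gene body and within 50 kb, using the GENCODE annotation of the same build. Protein-coding genes covered in at least 2 lists of a mark were fitted with limma 3.58.1 in R 4.3.3 (trended, robust, two-sided, Benjamini-Hochberg adjustment over all genes fitted, threshold 0.05). An exact permutation test cannot give a p below 0.1 for 3 against 3 libraries or 0.333 for 2 against 2. Kept percentages divide 4-OHT by the same-numbered control. Means are given with SDs between libraries. The members and gene lists were chosen with earlier results of these data known. Named were the 9 genes, other pathway genes that were called or lie within 50 kb, neighbours that share a region, and the 5 genes with the most similar profile.

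Whether numbers pair samples was checked by correlating deviations from condition means over genes. For H3K27me3 these were 0.908, 0.810 and 0.769 for numbers 1, 2 and 3 (3409 genes), each higher than with any other number. Across numbers 2 and 3 they were 0.594 and 0.658. Library 1 stood apart in both conditions, which alone affects these values, so the pairing of these libraries is an assumption. With 2 libraries per condition, unlike numbers give the same value with the sign reversed. Suz12 (0.500) and H3K27ac (0.444) were thus compared by number only. Alternatives were other windows, a log2 scale with a pseudocount of 25 bp, scaling to list size, a minimum width, joined regions, other filters, the gene record's start, the block and each library left out. Scripts were tested on simulated data. Python 3.11.15, NumPy 2.4.6, pandas 2.3.3 and Matplotlib 3.10.9 were used.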

Additional observations from a re-analysis of the deposited data

How the results depend on the processing

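Depth is unknown, so a region missing from a list may be a shallow library. No alternative window, filter, width, joining or scale made limma call any of the 9 genes, and every summed difference (H3K27me3 -10.8 kb, Suz12 -1.56 kb, H3K27ac 1.25 kb) moved by less than 1 SD between libraries. That SD was large for H3K27me3 (16.5 kb in 4-OHT), and scaling to list size left a difference of -0.42 kb. Leaving out 1 library took H3K27me3 from -18.5 to -1.44 kb, Suz12 from -3.54 to 0.41 kb and H3K27ac from 0.013 to 2.49 kb.

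With the replicate block, H3K27me3 calls rose from 0 to 3 of the 9 genes, from 0 to 2 of the other pathway genes and from 0 to 245 of all genes. The block alone changed no call for Suz12 or H3K27ac. The block with list scaling, chosen after seeing the data, called 1 gene of the genome for H3K27me3. For Suz12 it called 1 of the 9 (*Wnt10b*, -1.28 kb), 2 other pathway genes and 261 of all genes. Of these, 50 were lower (2.67% of 1873 genes) and 211 higher (11.3%). For H3K27ac only 3 of the 9 were covered and tested, and it called 2 of them (*Wnt9a*, 0.74 kb, and *Wnt10a*, 0.60 kb). It also called 1 other pathway gene and 1990 of all genes. Of these, 519 were lower (4.57% of 11345 genes) and 1471 higher (13%). Scaling alone called 20 genes for Suz12 and 210 for H3K27ac (107 lower, 103 higher). Leaving out 1 Suz12 library gave 3 to 334 calls over all genes, 0 to 1 of the 9 (*Wnt9b*, whose controls at 0 have no spread) and 0 to 4 pathway genes.

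Signs changed as follows. Scaling to list size, with or without the block, gave H3K27me3 differences of 0.76 kb at *Wnt6*, 0.45 kb at *Wnt7b*, 0.39 kb at *Wnt1* and 0.24 kb at *Wnt9b*, and Suz12 differences of -0.0066 kb at *Wnt4* and -0.047 kb at *Wnt7a*. Regions of at least 500 bp gave -0.050 kb of Suz12 at *Wnt4*, joining within 1 kb gave -0.050 kb at *Wnt6* and 0.013 kb at *Wnt7b*, and a 10 kb flank gave -0.013 kb of H3K27ac at *Wnt4*. Leaving out 1 library at a time gave H3K27me3 differences from -1.42 to 0.74 kb at *Wnt6*, -2.004 to 1.38 kb at *Wnt7b* and -2.31 to 0.33 kb at *Wnt1*, each highest without 4-OHT 1. Suz12 differences ran from -0.30 to 0.075 kb at *Wnt9a*, -0.89 to 0.037 kb at *Wnt10a* and -0.21 to 0.36 kb at *Wnt4*, and H3K27ac differences from -0.062 to 0.24 kb at *Wnt4* and -0.037 to 1.29 kb at *Wnt9a*. The cause of these changes was not tested.

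Genes without overlap between conditions within 50 kb numbered 2 to 9 when 1 H3K27me3 library was left out. All 9 were so without control 1, where 44.6% of all genes were lower in this way, against 19% with every library kept. *Wnt6* with *Wnt10a* and *Wnt1* with *Wnt10b* count the same bases there. The shares of all genes with other libraries left out are not given here. A FLAG region in any list counted 1 gene within 5 kb and 6 within 50 kb. With 1 FLAG list left out, 0 to 1 gene within 50 kb had a region in both remaining lists. The count was 0 without FLAG 1 and also without FLAG 2, as *Wnt9b* had regions in those 2 lists only.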
